A study of Mus musculus with 24 samples.

Results

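Keratins are the intermediate filament proteins of epithelia. Filaments form from pairs of 1 type I and 1 type II chain, and single-layered (simple) epithelia such as the gut lining use a different set of pairs from stratified epithelia such as oesophagus or skin. In the intestine, Krt8 is the main type II chain and pairs with the type I chains Krt18, Krt19 and Krt20. Filaments attach to desmosomes between cells and to hemidesmosomes at the basement membrane.

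The keratins examined here are 10 genes of the 45706 in the count tables, listed by symbol with no threshold on a measured value, although earlier results of these data were known. They comprise 6 keratins of simple epithelia (Krt7, Krt8, Krt18, Krt19, Krt20 and Krt23), 3 of stratified epithelia (Krt4, Krt6a and Krt17) and Krt80. Krt17, Krt18, Krt19, Krt20 and Krt23 are type I and lie on chromosome 11, apart from Krt18, which lies with the 5 type II genes on chromosome 15. All 10 were found in the tables of both tissues, and the annotation holds 43 further keratins. On GRCm38, the type I genes Krt20 (chr11:99428403-99438150), Krt23 (chr11:99477974-99493137), Krt19 (chr11:100140810-100148665) and Krt17 (chr11:100256217-100261029) are on the minus strand. Krt80 (chr15:101347444-101370162), Krt6a (chr15:101689910-101694307), Krt4 (chr15:101918535-101924735) and Krt8 (chr15:101996698-102004482) are also on the minus strand, whereas Krt7 (chr15:101411043-101430313) and Krt18 (chr15:102028180-102032027) are on the plus strand. Krt8 and Krt18 are thus neighbours that point away from each other.

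RNA was sequenced from 24 libraries of mouse organoids, self-organising epithelium cultured in matrix, from small intestine (SI) or colon (COL). All donors were on the C57BL/6N strain and carried Villin::CreERT2, a tamoxifen-activated Cre driven by the Villin promoter in intestinal epithelium, also in the controls. In addition they carried BraffloxV600E/+ (called BRAF), Trp53LSL-R172H/+ (p53) or both (BRAFp53), which Cre switches to the active kinase BRAFV600E and the mutant p53R172H. Off libraries received ethanol and on libraries 4-hydroxytamoxifen (4-HT) for 24 h, at 0.5 µM in SI and 3.5 µM in COL, and RNA was taken on day 8 in SI and day 3 in COL. With 2 libraries per group, the 12 groups come from 6 cultures, 1 donor culture per genotype and tissue. The study's methods name 3 donor mice, 1 per genotype. The Xist and Y-linked counts given below do not match that for p53 and BRAFp53, where the COL and SI cultures differ in sex. Whether the COL and SI cultures of BRAF share a mouse was not tested. A genotype cannot be told apart from its culture, nor a tissue from its dose and day, nor the alleles from 4-HT itself, since a culture with no conditional allele was not analysed here. The labels name no separate animals within a group, so the p-values measure the spread between 2 libraries of 1 culture.

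COL libraries held 51174821 to 78175143 counts and SI libraries 44350747 to 68214835. Levels are given in CPM, the reads of a gene per 1000000 reads counted, with library totals scaled by the TMM method across all 24 libraries, and 3 counts, taken as the limit of detection, correspond to 0.0368 to 0.0572 CPM in COL and 0.0481 to 0.0878 CPM in SI. The 2 libraries of every group differed by more than sampling noise (chi-square divided by its degrees of freedom was 22.2 to 102), and all were kept. Of the targeted genes, Trp53 rose in COL p53 (log2 fold change 0.94 ± 0.13, SE), COL BRAFp53 (0.94 ± 0.13) and SI BRAFp53 (0.52 ± 0.13). It was at 0.76 ± 0.13 in SI p53 (adjusted p = 0.194) and fell in COL BRAF (-0.43 ± 0.13) and SI BRAF (-0.61 ± 0.13). Braf was at 0.38 to 0.50 in the 4 arms with the BRAF allele without passing the test in any. One library stood apart from its culture. SI BRAF on replicate 1 held 770 counts of Xist, the X-inactivation transcript of female cells, although the other 3 libraries of that culture held 8 to 27 and all 4 held Y-linked counts (2417 to 3511, sum of Ddx3y, Kdm5d and Uty). The SI p53 and SI BRAFp53 cultures held 6123 to 9743 Xist counts and at most 7 Y-linked counts, and all 3 COL cultures held Y-linked counts and at most 3 of Xist. Whether reads of another culture are in that library was not tested. The SI BRAF log2 fold changes of the keratins and the list counts are given below with and without it, and levels and shares are those of the libraries as deposited.

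The cultures carried the markers of intestinal epithelium. Epcam, an epithelial adhesion protein, lay between 358.5 and 650.5 CPM in the 24 libraries, and Vil1, the brush border protein villin, between 396 and 1992 CPM. The 8 squamous markers together reached only 4.44 to 14.7 CPM in COL and 4.90 to 9.58 CPM in SI. Among them Trp63, the master regulator of stratified epithelium, was at or under 3 counts in 21 of 24 libraries and Krt1 in all 24. Krt10 (120 to 457 counts) and Krt15 (15 to 124 counts) were above 3 counts in all 24. Dsg3 reached 568 and Krt13 116 counts. The 11 markers of stroma, endothelium and immune cells together reached 1.98 to 10.2 CPM in COL and 1.29 to 8.50 CPM in SI, with Cd3e at or under 3 counts in all 24. Vim held 53 to 500 counts. On induction it rose in COL BRAF (log2 fold change 2.73 ± 0.33), COL BRAFp53 (1.18 ± 0.31) and SI BRAFp53 (1.72 ± 0.38). In SI BRAF it was at 0.86 ± 0.40 without passing the test.

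On induction, most simple keratins rose in organoids with the BRAF allele. In COL BRAF, 7 of the 10 keratins rose (edgeR, adjusted p under 0.05), against a background of 10.3% of all tested genes called higher, and in COL BRAFp53 the number was also 7 (background 9.95%). These were the 6 simple keratins and Krt4 in both arms. In SI BRAF 5 of 10 rose (background 17.5%), all simple, with Krt18 left out, and in SI BRAFp53 all 6 simple keratins rose (background 6.98%). Of the 5 epithelial markers (Epcam, Cdh1, Vil1, Cdx2 and Cldn7), 3 rose in COL BRAF, 3 in COL BRAFp53, 4 in SI BRAF (also 4 without SI BRAF on replicate 1) and 1 in SI BRAFp53, and 0 fell. On the log2 scale (± SE), Vil1 rose by 0.80 ± 0.14, 0.68 ± 0.14, 1.72 ± 0.10 and 0.46 ± 0.10 in these arms, while Epcam was at 0.185 ± 0.10, -0.098 ± 0.10, 0.28 ± 0.10 and 0.03 ± 0.10 and was called in SI BRAF only. Their part in the keratin result was not tested. In a bulk sample, more cells that express a keratin and more of its RNA per cell cannot be told apart.

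edgeR called no keratin in the p53 arms. In COL p53 the background was 0.142% of genes called in either direction, and 5 of the 9 tested keratins had an unadjusted p under 0.05, out of 1583 such genes of 18972. DESeq2 called 3 keratins there (Krt7, Krt18 and Krt23), limma-voom 0, and edgeR without a filter on low counts 5. Without COL p53 on replicate 2, edgeR called Krt7, Krt18 and Krt19. For 7 of the 10 keratins both on libraries lay above both off libraries in COL p53, where 21.3% of all genes did so. In SI p53, edgeR called 0.0% of genes (873 had an unadjusted p under 0.05, among them 1 keratin), DESeq2 called 55 genes and limma-voom 1, none of them a keratin. Both on libraries were above both off libraries for 5 keratins in SI p53, against 19.8% of all genes.

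**Figure D1:**
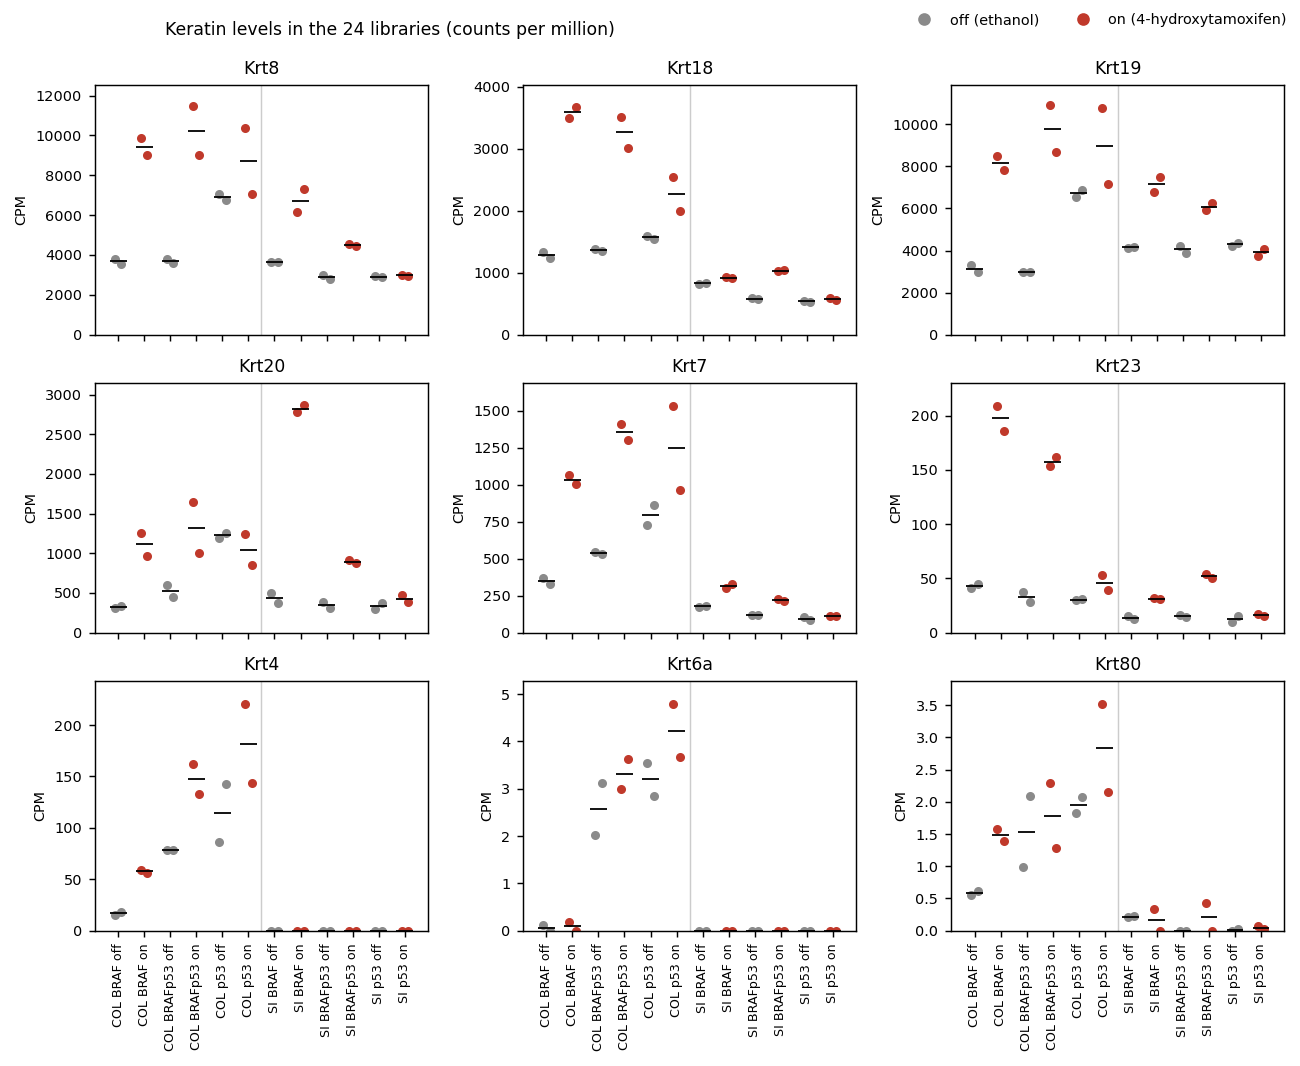
Level of 9 keratins in CPM (linear axes from 0) in each of the 24 libraries, grey for off and red for on, with a bar at the mean of the 2 libraries of a group; COL groups are left and SI groups right of the vertical line. Krt18 stays at 821 to 929 CPM across all SI BRAF libraries, while Krt20 reaches 2782 and 2866 CPM in SI BRAF on, its highest group, and Krt4 and Krt6a are at 0 in all SI libraries.

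Krt8, the main type II chain of simple epithelia, stood at 3809 and 3541 CPM in COL BRAF off and at 9852 and 8994 CPM in COL BRAF on. The corresponding values were 3792 and 3587 CPM against 11490 and 9000 CPM in COL BRAFp53. The groups did not overlap in either culture, with log2 fold changes of 1.35 ± 0.16 (SE, adjusted p = 0.000207) and 1.48 ± 0.16 (adjusted p = 0.000165). In SI BRAF the off libraries were at 3645 and 3656 CPM and the on libraries at 6134 and 7308 CPM, a log2 fold change of 0.83 ± 0.09 (adjusted p = 1.24e-05) that was 0.96 without SI BRAF on replicate 1. SI BRAFp53 went from 2998 and 2813 CPM to 4542 and 4437 CPM (0.59 ± 0.09, adjusted p = 0.000618). Krt8 therefore lay higher in both on libraries than in both off libraries of every culture with the BRAF allele. SI p53 held 2921 and 2894 CPM off and 3016 and 2964 CPM on (0.02 ± 0.09, adjusted p = 1.0).

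Krt18, the classical partner of Krt8, rose in 3 of the 4 arms with the BRAF allele. COL BRAF went from 1336 and 1233 CPM to 3502 and 3679 CPM (log2 fold change 1.48 ± 0.12, adjusted p = 1.87e-05) and COL BRAFp53 from 1383 and 1344 CPM to 3517 and 3018 CPM (1.26 ± 0.12, adjusted p = 6.54e-05). In SI BRAF it was at 821 and 836 CPM off and 929 and 918 CPM on. Both on libraries were above both off libraries there, but the log2 fold change of 0.11 ± 0.09 did not pass the test (adjusted p = 0.365, approximate 95% interval -0.06 to 0.28) and was also 0.11 without SI BRAF on replicate 1. SI BRAFp53 went from 588 and 575 CPM to 1033 and 1038 CPM (0.80 ± 0.09, adjusted p = 5.34e-05).

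The stretches before the transcription start of Krt8, of its partner Krt18 and of Krt20 are shown because these 3 genes had log2 fold changes of 0.83, 0.11 and 2.65 in SI BRAF. They were taken from the RefSeq promoter table (build GRCm38.p6), which held windows for 5 of the 10 members (Krt7, Krt8, Krt18, Krt20 and Krt23), and end at the base before the more upstream of the RefSeq and GENCODE starts. Capitals mark matches of the searched motifs, of which only the stretch of Krt20 holds any.
Krt8 (chr15:102004483-102004592, minus strand): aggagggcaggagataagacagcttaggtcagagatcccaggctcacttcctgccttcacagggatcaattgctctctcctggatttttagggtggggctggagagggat
Krt18 (chr15:102027966-102028179, plus strand): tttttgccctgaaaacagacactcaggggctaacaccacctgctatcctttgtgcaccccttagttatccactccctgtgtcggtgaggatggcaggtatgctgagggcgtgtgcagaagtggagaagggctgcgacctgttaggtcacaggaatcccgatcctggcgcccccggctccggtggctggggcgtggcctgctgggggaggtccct
Krt20 (chr11:99438154-99438403, minus strand): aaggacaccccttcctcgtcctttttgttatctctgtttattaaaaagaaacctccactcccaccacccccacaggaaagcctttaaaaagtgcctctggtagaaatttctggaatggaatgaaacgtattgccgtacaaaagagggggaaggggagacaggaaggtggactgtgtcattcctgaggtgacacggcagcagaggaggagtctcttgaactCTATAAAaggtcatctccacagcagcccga
The search covered both strands of the full windows of 250 bases before and 50 after the RefSeq start. Krt20 held the TATA motif TATAAA at 29 bases before its start, overlapping by 6 letters a match to the CDX motif TTTATNG on the other strand. Krt8 held TATAAA on both strands, at 3 and 1 bases before the RefSeq start and outside the stretch shown, whereas the window of Krt18 held none of the motifs. TATAAA was present in 13.6% and the CDX motif in 10.9% of the 32851 windows of the table. The GC box GGGCGG was in the window of Krt7 (35.7% of all windows), and neither the AP-1 motif TGANTCA (7.81%) nor the ETS motif CCGGAAGT (3.89%) was in any of the 5 member windows. A match describes letters in this window and not a bound site.

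Krt19, a type I chain that is short of a tail domain and is found in crypt and villus cells, stood near Krt8 in level. COL BRAF went from 3293 and 2979 CPM to 8493 and 7833 CPM (log2 fold change 1.38 ± 0.16, adjusted p = 0.000204) and COL BRAFp53 from 3002 and 2979 CPM to 10900 and 8695 CPM (1.71 ± 0.17, adjusted p = 7.03e-05). SI BRAF rose from 4141 and 4154 CPM to 6803 and 7517 CPM (0.74 ± 0.08, adjusted p = 2.4e-05; 0.82 without SI BRAF on replicate 1). SI BRAFp53 rose from 4206 and 3901 CPM to 5907 and 6246 CPM (0.55 ± 0.08, adjusted p = 0.000841). Krt19 was thus separated between off and on in all 4 arms with the BRAF allele. It was the only simple keratin with both on libraries below both off libraries in an arm, at 3757 and 4081 CPM against 4227 and 4370 CPM in SI p53 (-0.15 ± 0.08, adjusted p = 1.0).

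Krt20 is known from differentiated enterocytes and surface colonocytes. Its largest rise was in SI BRAF, from 506 and 368 CPM to 2782 and 2866 CPM (log2 fold change 2.65 ± 0.16, adjusted p = 1.41e-07, and 2.68 without SI BRAF on replicate 1). SI BRAFp53 reached 914 and 875 CPM from 381 and 309 CPM (1.34 ± 0.16, adjusted p = 8.9e-05). The on libraries of SI BRAF were thus above those of every other group. Enterocyte markers moved beside it: their 12 genes summed to 14070 and 10660 CPM in SI BRAF off and to 45490 and 50980 CPM in SI BRAF on, with 9 of 11 tested called higher and 0 lower (9 and 1 without SI BRAF on replicate 1). Of all genes, 17.5% were called higher in SI BRAF, and 15.4% without that library. In SI BRAFp53 the sum went from 23160 and 19520 CPM to 30010 and 28850 CPM, with 3 called higher (6.98% of all genes were), such as Guca2a (1.21 ± 0.16), a secreted ligand of guanylate cyclase, and 4 lower, such as Car4 (-2.92 ± 0.74), a membrane carbonic anhydrase that was higher in SI BRAF (3.00 ± 0.45). The part of these cells in the rise of Krt20 was not tested.

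In COL, Krt20 rose from 312 and 334 CPM to 1258 and 965 CPM in BRAF (1.78 ± 0.25, adjusted p = 0.000492) and from 602 and 448 CPM to 1644 and 998 CPM in BRAFp53 (1.34 ± 0.24, adjusted p = 0.00305). COL p53 already stood at 1198 and 1258 CPM off and was at 1248 and 847 CPM on, so that its groups overlapped (-0.25 ± 0.24, adjusted p = 0.883). The enterocyte markers of COL BRAF summed to 2850 and 2836 CPM off and 7182 and 5258 CPM on, with 6 of 12 called higher (10.3% of all genes were) and 3 lower. Car1 made up 1328 and 1347 CPM of this sum off and 4947 and 3146 CPM on. Fabp1 went down from 90.35 and 84.26 CPM to 6.78 and 7.49 CPM, and Guca2b from 42.5 and 38.7 CPM to 23.4 and 22.6 CPM. COL p53 off held 15820 and 20200 CPM, most of it Car1 (13590 and 18010 CPM). In COL BRAFp53 the sum went from 4924 and 5727 CPM to 11440 and 6474 CPM, with 2 of 12 called higher (9.95% of all genes were), Fabp2 (1.39 ± 0.17) and Car1 (0.94 ± 0.26), and 3 lower, Sis (-2.405 ± 0.32), Apoa1 (-1.37 ± 0.21) and Guca2b (-0.999 ± 0.13). Most of this sum was Car1, at 3476 and 4310 CPM off and 9595 and 5323 CPM on. The COL p53 culture was also higher than the other COL cultures when off in Krt8 (7061 and 6751 CPM) and Krt19 (6539 and 6888 CPM), which is a difference between cultures of 1 donor each.

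Krt7, a type II chain of ductal and glandular epithelium, was higher in COL than in SI and rose in both. COL BRAF went from 367 and 330 CPM to 1065 and 1002 CPM (log2 fold change 1.56 ± 0.18, adjusted p = 0.000147) and COL BRAFp53 from 543 and 533 CPM to 1407 and 1298 CPM (1.33 ± 0.18, adjusted p = 0.000489). SI BRAF went from 172.5 and 182 CPM to 301 and 332 CPM (0.79 ± 0.12, adjusted p = 0.000205; 0.87 without SI BRAF on replicate 1) and SI BRAFp53 from 118 and 117 CPM to 228 and 212 CPM (0.87 ± 0.12, adjusted p = 0.000302). No off and on groups overlapped in these 4 arms. COL p53 on held 1532 and 966 CPM over 729 and 862 CPM off, also without overlap, but its log2 fold change of 0.63 ± 0.17 had an adjusted p = 0.236.

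Krt23, a type I chain that is less studied than the others, had the largest log2 fold changes of the 10 keratins in COL BRAF and COL BRAFp53. Its level went from 41.3 and 45.1 CPM to 209 and 186 CPM in COL BRAF (2.19 ± 0.17, adjusted p = 1.15e-05) and from 37.5 and 28.6 CPM to 154 and 162 CPM in COL BRAFp53 (2.26 ± 0.17, adjusted p = 2.56e-05). Its highest value in SI was 54.2 CPM, in SI BRAFp53 on. The SI changes were 1.14 ± 0.19 in BRAF (from 15.6 and 12.2 CPM to 32.1 and 30.7 CPM, adjusted p = 0.000518, 1.11 without SI BRAF on replicate 1) and 1.73 ± 0.19 in BRAFp53 (from 16.3 and 14.4 CPM to 54.2 and 50.02 CPM, adjusted p = 5.7e-05).

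**Figure D2:**
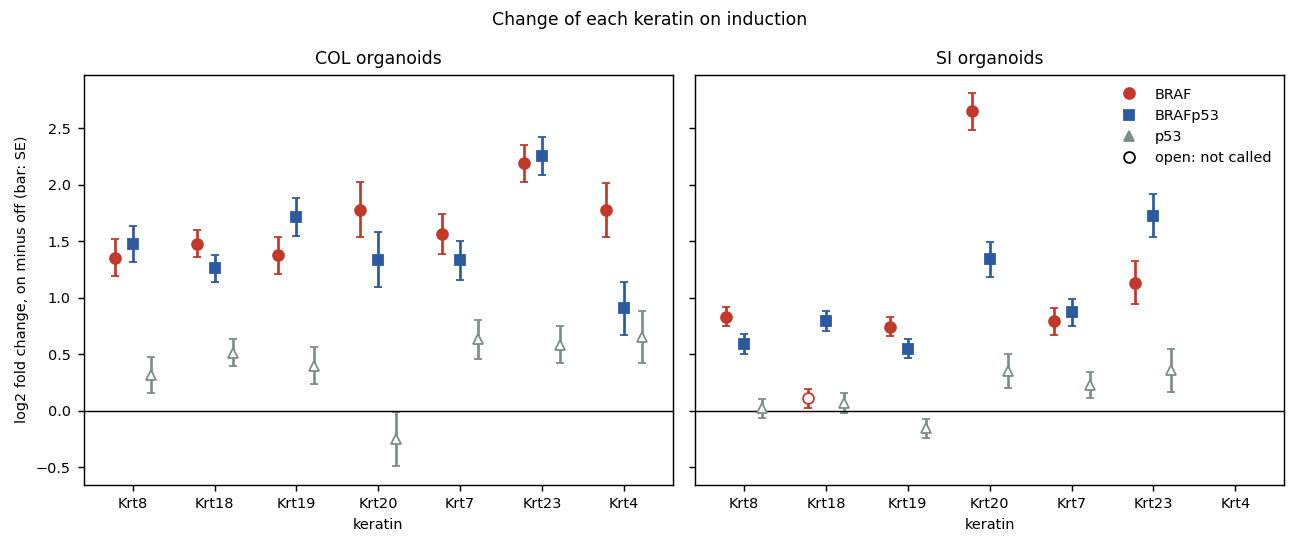
Log2 fold change of on against off for 7 keratins in COL (left) and SI (right) organoids, with bars of 1 SE; filled symbols passed the test (edgeR, adjusted p under 0.05) and open symbols did not. Krt23 is highest in COL (2.19 and 2.26), Krt20 of BRAF is highest in SI (2.65), Krt18 of SI BRAF is the only open symbol among the simple keratins of BRAF and BRAFp53, and Krt4 has no SI value because no read was counted there.

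Krt4, the type II keratin of non-cornifying stratified epithelium such as oesophagus, was expressed in COL and had 0 counts in all 12 SI libraries. COL BRAF held the least, 15.7 and 18.0 CPM off and 59.4 and 56.5 CPM on (1.78 ± 0.24, adjusted p = 0.00045). In COL BRAFp53 it went from 78.9 and 78.4 CPM to 162 and 133 CPM (0.91 ± 0.23, adjusted p = 0.0198), a call that was lost without on replicate 1, off replicate 1 or off replicate 2 (adjusted p of 0.111, 0.0771 and 0.0805) and with the replicate block (0.0503). COL p53 held 85.8 and 142 CPM off and 220 and 144 CPM on (0.65 ± 0.23, adjusted p = 0.436). The off and on groups of Krt4 did not overlap in any of the 3 COL cultures. The median of the COL off libraries, 78.6 CPM, was 896-fold higher than 3 counts in the SI library where these weigh most. The lowest COL off library, at 15.7 CPM, was closer to that limit.

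Krt6a, a keratin of hair follicle and wounded epidermis, was low and did not pass the test in any arm. It had 0 counts in all SI libraries and, in COL BRAF, 9 and 0 counts off and 12 and 0 counts on. COL BRAFp53 (2.02 and 3.12 CPM off, 2.99 and 3.63 CPM on) and COL p53 (3.54 and 2.85 CPM off, 4.78 and 3.68 CPM on) held more of it. In annotation its exons overlap those of 2 gene models on the other strand, its sequence is close to that of other Krt6 genes, and whether counting used strand was not stated, so its counts are uncertain. Krt17, which marks hair follicle and activated keratinocytes, was at 0 in 22 libraries and had 4 counts in 1 off and 1 on library of COL p53, too few to test.

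Krt80, a type II chain found near desmosomes, was low throughout. In COL BRAF it had 39 and 40 counts off and 105 and 73 counts on, without overlap (1.34 ± 0.46, adjusted p = 0.0614). That value passed the threshold with DESeq2 (adjusted p = 0.0327), without the filter on low counts (0.0472) and with at least 10 counts in every library (0.0398). The COL BRAFp53 groups overlapped (0.22 ± 0.44, adjusted p = 0.784), and in SI no library held more than 21 counts. Exons of Krt7, Krt8 and Krt80 also overlap predicted genes on the other strand, over 77, 101 and 263 bases.

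Compared per length, Krt19 and Krt8 led the keratins in every group. Levels per kb of the principal transcript were 1990 ± 141 CPM per kb (SD, n = 2) for Krt19 and 1877 ± 96.8 for Krt8 in COL BRAF off, and 1898 ± 10.2 and 1885 ± 74.0 in COL BRAFp53 off, so these neighbours in the order did not differ beyond their spread. In COL p53 off, Krt19 (4260 ± 156) was above Krt8 (3527 ± 112) in both libraries. Krt18 (894 ± 50.8), Krt20 (167 ± 8.10), Krt7 (85.2 ± 6.51), Krt23 (27.6 ± 1.72) and Krt4 (7.90 ± 0.76) followed in COL BRAF off, each below the spread of the one before it. In SI BRAF off, Krt19 (2632 ± 5.54) was well above Krt8 (1864 ± 4.196), with Krt18 at 577 ± 7.31 and Krt20 at 227 ± 50.7. In SI BRAF on, Krt20 (1466 ± 31.0) was above Krt18 (642 ± 5.51), the only group of the 12 in which this order was turned.

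The 10 keratins together took 1.03% ± 0.05 of all counts in COL BRAF off and 2.43% ± 0.14 in COL BRAF on, and 1.09% ± 0.05 and 2.80% ± 0.36 in COL BRAFp53. In SI the share went from 0.91% ± 0.03 to 1.40% ± 0.08 in BRAF and from 0.74% ± 0.02 to 1.13% ± 0.04 in BRAFp53. In COL p53 it was 1.92% ± 0.03 off and 2.45% ± 0.62 on, and in SI p53 0.77% ± 0.02 off and 0.74% ± 0.03 on. The type I share of the summed keratin level per kb was 61.0% ± 0.16 off and 62.2% ± 0.57 on in COL BRAF, 60.5% ± 0.19 and 62.2% ± 0.16 in COL BRAFp53, 64.4% ± 0.33 and 65.6% ± 1.59 in SI BRAF, and 67.7% ± 0.21 and 68.4% ± 0.97 in SI BRAFp53. In SI p53 it was 68.5% ± 0.74 off and 66.7% ± 0.997 on, and in COL p53 61.4% ± 1.047 and 61.9% ± 0.36. Stratified keratins made up at most 0.75% of the keratin level in any library.

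**Figure D3:**
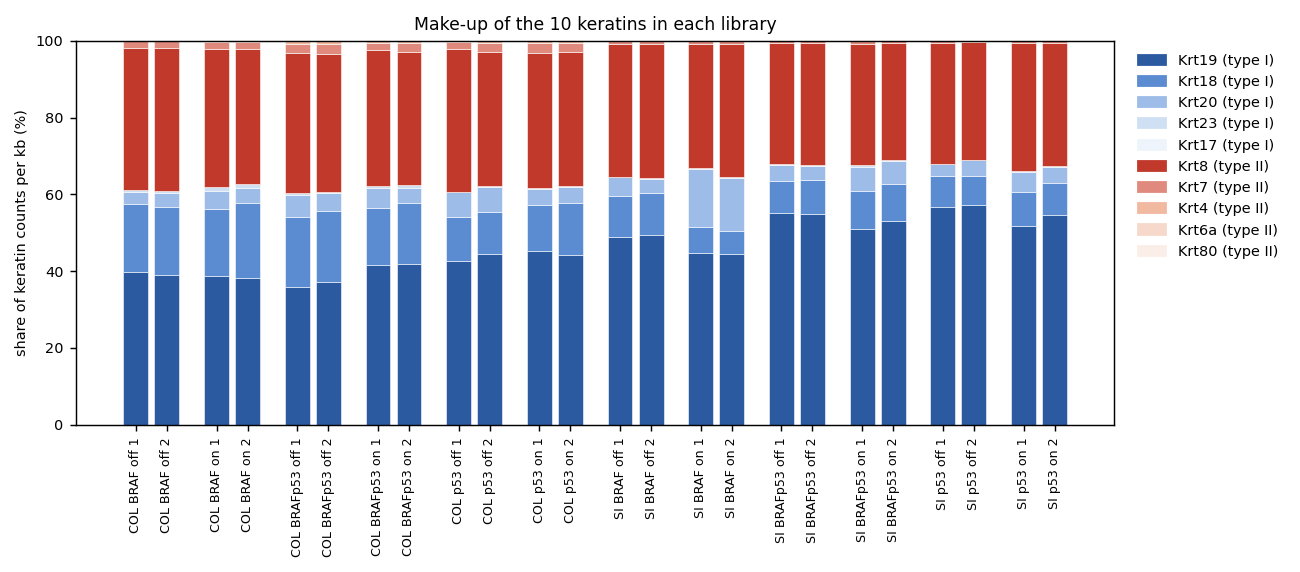
Share of each keratin in the summed counts per kb of the 10 genes (%), 1 bar per library, with type I chains in blue and type II chains in red. The blue part spans 60.3% to 69.05%, and the third blue band (Krt20) is widest in the 2 SI BRAF on libraries.

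The ratio of Krt8 to Krt18 differed between cultures. Per kb, it was 2.10 ± 0.01 off and 1.93 ± 0.19 on in COL BRAF and 1.99 ± 0.04 and 2.29 ± 0.15 in COL BRAFp53. In SI BRAF it went from 3.23 ± 0.03 to 5.35 ± 0.71, with 4.85 and 5.85 in the on libraries, the highest of all 24. SI BRAFp53 instead moved from 3.67 ± 0.11 to 3.18 ± 0.06. COL p53 also moved down without overlap, from 3.22 ± 0.03 to 2.78 ± 0.28, and SI p53 was at 3.98 ± 0.09 off and 3.85 ± 0.09 on. The ratio of Krt20 to Krt19 was 0.0774 and 0.0916 in COL BRAF off and 0.121 and 0.101 in COL BRAF on, and 0.0999 and 0.0724 in SI BRAF off and 0.334 and 0.312 in SI BRAF on. It was also higher on than off in both libraries of SI BRAFp53 (0.0741 and 0.0648 off, 0.127 and 0.115 on) and of SI p53 (0.0567 and 0.0701 off, 0.102 and 0.0787 on). In COL p53 it was lower on (0.0948 and 0.0966) than off (0.150 and 0.149), and in COL BRAFp53 the off libraries were at 0.164 and 0.123 and the on libraries at 0.123 and 0.0939.

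**Figure D4:**
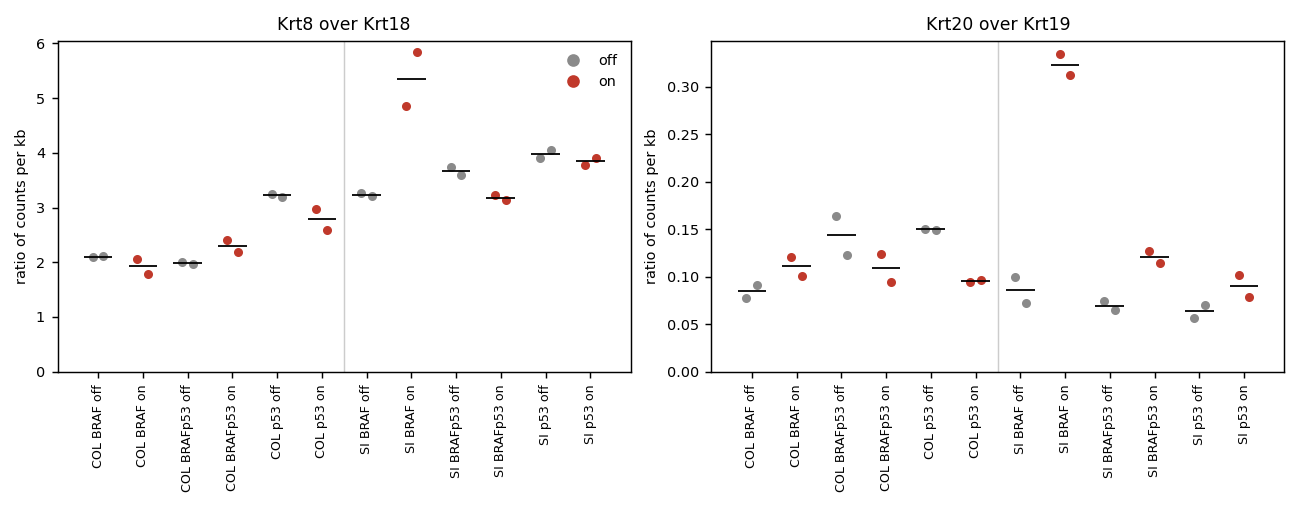
Ratio of Krt8 to Krt18 (left) and of Krt20 to Krt19 (right), both of counts per kb on linear axes from 0, with points for libraries and bars for group means. The SI BRAF on libraries are the highest in both panels, at 4.85 and 5.85 for Krt8 over Krt18 and at 0.334 and 0.312 for Krt20 over Krt19.

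Whether p53R172H changed the response to BRAFV600E was tested as the difference of the responses in BRAFp53 and BRAF within a tissue. In SI, 2 of the 7 tested keratins differed, where 8.2% of all genes did. Krt18 rose more in BRAFp53, by 0.69 ± 0.12 on the log2 scale (adjusted p = 0.00443), and Krt20 rose less, with a difference of -1.31 ± 0.22 (adjusted p = 0.00272). Without SI BRAF on replicate 1 these were 0.70 and -1.32. In COL the difference was called for 0 of 9 keratins (0.907% of genes were, with 1 keratin and 3596 genes at an unadjusted p under 0.05), also by DESeq2 and limma-voom. The approximate 95% interval of the COL difference was -0.54 to 0.11 for Krt18 and -1.10 to 0.22 for Krt20. For Krt4 the difference was -0.87 ± 0.33 (adjusted p = 0.186), and without a filter on low counts -0.84 with an adjusted p of 0.00171. Each of these differences is also one between 2 donor cultures, which in SI differed in Xist and Y-linked counts as given above.

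Between the tissues, the response to induction of BRAF was larger in COL for 3 of the 7 keratins with reads in both tissues, where 10.7% of all genes differed in either direction. The difference (COL minus SI) was 1.33 ± 0.14 for Krt18 (adjusted p = 9.14e-06), 1.014 ± 0.265 for Krt23 (adjusted p = 0.0176) and 0.73 ± 0.22 for Krt7 (adjusted p = 0.0365). Only that of Krt18 kept its call whichever library was left out. Krt7 lost it in all 8 cases (adjusted p of 0.0569 to 0.132) and Krt23 in 4, without COL BRAF on replicate 1 (0.0665), COL BRAF off replicate 1 (0.0708), SI BRAF on replicate 2 (0.0506) or SI BRAF off replicate 1 (0.0906). Krt20 pointed to SI (-0.91 ± 0.32, adjusted p = 0.0771), and passed with DESeq2 (0.03), without the filter on low counts (3.09e-06), with the replicate block (0.0451) and without SI BRAF off replicate 1 (0.0454). With the replicate block, a call of Krt7, Krt18 or Krt23 was lost as Krt20 gained its own. For BRAFp53, Krt8 (0.85 ± 0.19, adjusted p = 0.0193) and Krt19 (1.13 ± 0.19, adjusted p = 0.00308) rose more in COL, 2 of 7 where 3.52% of genes differed. Krt8 lost its call without COL BRAFp53 on replicate 1 (0.0967), COL BRAFp53 off replicate 2 (0.0703), SI BRAFp53 on replicate 2 (0.0791) or SI BRAFp53 off replicate 1 (0.0744). Dose and day of RNA isolation differ with the tissue and cannot be told apart from it, nor, for BRAFp53, can the sex of the donor, since the COL culture held Y-linked reads and the SI culture Xist.

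In off organoids, with the 2 libraries of a culture summed and 3 cultures per tissue, 5 of 8 tested keratins were higher in COL, where 17.0% of all genes were. Krt7 (log2 difference 2.14 ± 0.36, adjusted p = 0.00682), Krt23 (1.39 ± 0.18, adjusted p = 0.00313) and Krt18 (1.14 ± 0.21, adjusted p = 0.0092) were the simple ones. Krt4 and Krt80 (4.15 ± 1.25, adjusted p = 0.0443) were the others, and the call of Krt80 was lost without the COL BRAFp53, COL p53, SI BRAFp53 or SI p53 culture (adjusted p of 0.0827 to 0.133). With 0 counts in SI, Krt4 could only be called higher in COL. Krt8 (0.62 ± 0.30, adjusted p = 0.157), Krt20 (0.94 ± 0.46, adjusted p = 0.165) and Krt19 (0.07 ± 0.34, adjusted p = 0.896) did not pass. The summed enterocyte markers spanned 2836 to 20200 CPM over the COL off libraries and 10660 to 23390 CPM over the SI off libraries, but these sums hold different genes. Car1, a carbonic anhydrase of colonocytes, made up 13590 and 18010 CPM of the sum in COL p53 off and was at 0 in all SI off libraries, whereas the fatty acid-binding Fabp1 was at 3032 to 12230 CPM in SI off and at most 90.3 CPM in COL off. In the off cultures, the type I share was 60.95% ± 0.48 (SD, n = 3) in COL and 66.8% ± 2.22 in SI, and the ratio of Krt8 to Krt18 was 2.44 ± 0.68 and 3.62 ± 0.37. By the same reads, all 3 COL cultures were male and 2 of the 3 SI cultures female. The ranges over cultures did not overlap for either quantity, although for the ratio they nearly met (highest COL culture 3.222, lowest SI culture 3.23) and single libraries overlapped (3.242 in one COL p53 off library, 3.257 and 3.209 in SI BRAF off). For both quantities, the two-sided exact permutation p was 0.1, the smallest that 3 against 3 cultures allow.

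Of the 43 keratins outside the 10, 22 could be tested in COL and 8 in SI. In COL BRAF 5 rose and 0 fell (median log2 fold change of those tested 1.10, against -0.01 over all genes), where 10.3% of all genes were called higher. Krt5 and Krt90 had 0 counts in the COL BRAF off libraries and Krt13 had 0 and 1. They could hardly fall, so the count of 0 and the median partly follow from which genes passed the filter. In COL BRAFp53 edgeR called 2 of 22 higher, near the background of 9.95%. DESeq2 called 5 there in either direction, where it called 4284 of 18972 genes, and limma-voom 2. In COL BRAF these tools called 8 and 4. edgeR called 0 in the other arms (in SI BRAF also 0 of 11 tested without on replicate 1), where 1 (SI BRAF), 2 (SI BRAFp53), 2 (COL p53) and 3 (SI p53) had an unadjusted p under 0.05. DESeq2 called 1 of them, in SI BRAFp53, and limma-voom 0. In off organoids 6 of 14 were higher in COL than in SI, where 17.0% of all genes were. Krt79, Krt83 and Krt84 among them had 0 counts in all SI off libraries, and Krt36, Krt39 and Krt88 at most 6 in any. Genes that passed the filter on low counts through COL alone could only be called higher there. Krt36, a type I hair keratin also found in tongue papillae, had 13 and 8 counts in COL BRAF off and 277 and 209 on (4.71 ± 0.50, adjusted p = 0.000103), and 77 and 98 off and 375 and 396 on in COL BRAFp53 (2.13 ± 0.42, adjusted p = 0.00469). Krt84, a type II hair keratin, rose in COL BRAF from 36 and 33 counts to 743 and 584 (4.45 ± 1.18, adjusted p = 0.0198), but it overlapped in COL BRAFp53, with 124 and 4 counts off and 505 and 23 on. Krt13, the usual partner of Krt4 in oesophagus, had 0 and 1 counts in COL BRAF off and 116 and 90 on (adjusted p = 0.00494). In COL BRAFp53 it had 0 and 5 counts off and 100 and 15 on (adjusted p = 0.0337). Krt27, a keratin of the hair root sheath, had 0 and 2 counts off and 30 and 15 on, and Krt39 13 and 24 off and 107 and 84 on. These 43 genes together amounted to 10.4 to 40.3 CPM in COL libraries and 7.72 to 12.9 CPM in SI libraries.

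**Figure D5:**
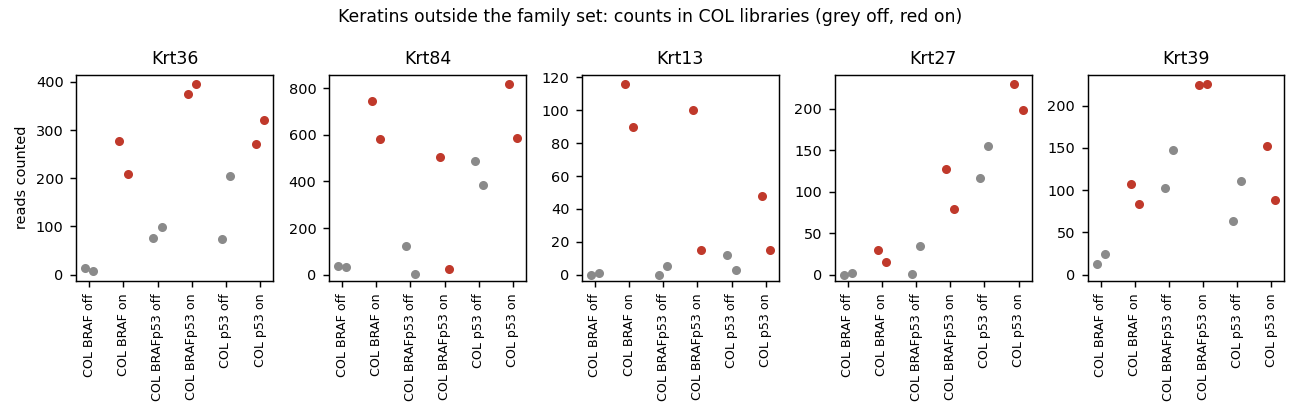
Reads counted for 5 keratins outside the 10 in the 12 COL libraries (linear axes), grey for off and red for on. All 5 were called higher in COL BRAF; Krt84 shows a library pair of COL BRAFp53 on that lies far apart (505 and 23 counts).

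Genes of the structures to which keratins attach also rose. Of 16 desmosome genes, 12 were tested, and 7 rose in COL BRAF, 5 in COL BRAFp53, 8 in SI BRAF and 4 in SI BRAFp53. The shares of all genes called higher in these arms were 10.3%, 9.95%, 17.5% and 6.98%. Without SI BRAF on replicate 1, where 15.4% of all genes were called higher, 6 desmosome genes rose in SI BRAF. Among them Perp, a tetraspan membrane protein of desmosomes, rose in these 4 arms (0.92 ± 0.11, 0.80 ± 0.11, 0.63 ± 0.16 and 0.59 ± 0.16 in the same order), as did the plaque protein Pkp3 (0.86 ± 0.17, 1.003 ± 0.17, 0.77 ± 0.14 and 0.58 ± 0.14). Dsg2, the desmoglein of simple epithelia, rose by 1.09 ± 0.15, 0.54 ± 0.15, 0.78 ± 0.11 and 0.49 ± 0.11. Dsg3, a desmoglein of stratified epithelium, had the largest fold in COL BRAF, from 12 and 6 counts to 568 and 299 (5.74 ± 0.94), and had 0 and 1 counts in SI BRAF off and 17 and 11 on, a call that was lost without SI BRAF on replicate 1 (adjusted p = 0.147). With 0 and 1 counts off, Dsg3 could hardly fall in SI BRAF. Pkp1, a plakophilin of suprabasal epidermis, was the gene that fell in both SI arms (-1.02 ± 0.19 and -0.86 ± 0.19). The median log2 fold change of the tested desmosome genes was 0.86, 0.65, 0.54 and 0.48, beside -0.01, -0.04, -0.06 and -0.03 over all genes.

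Of 12 hemidesmosome and plakin genes found in the tables, 11 rose in COL BRAF, 7 in COL BRAFp53, 8 of 11 tested in SI BRAF and 6 in SI BRAFp53, and 0 fell (7 of 11 in SI BRAF without on replicate 1). Beside the shares of all genes given for the desmosome list, the median log2 fold change of the tested hemidesmosome genes was 1.60, 0.84, 1.17 and 0.82. Plec, which links keratin filaments to the hemidesmosome, rose by 1.84 ± 0.18, 1.23 ± 0.18, 1.89 ± 0.18 and 1.19 ± 0.17 in these arms, and its integrin partner Itgb4 by 1.79 ± 0.20, 1.33 ± 0.20, 1.33 ± 0.15 and 0.75 ± 0.15. Of 22 genes of the cornified envelope and of squamous regulation, 11 of 19 tested rose in COL BRAF, 8 in COL BRAFp53 (with 1 lower), and 6 and 5 of 14 in SI BRAF and SI BRAFp53 (6 of 15 in SI BRAF without on replicate 1). Their medians were 1.72, 1.36, 1.53 and 1.83, against the same shares of all genes. The list already summed to 395 to 466 CPM in SI off libraries, so it is not specific to squamous cells. The envelope precursor Sprr1a rose by 3.12 ± 0.24, 3.05 ± 0.24, 3.37 ± 0.32 and 4.95 ± 0.35, and the calcium-binding S100a14 by 2.65 ± 0.19, 2.31 ± 0.19, 1.72 ± 0.16 and 2.38 ± 0.17. Of the genes with the largest folds in COL BRAF, Cnfn had 0 counts off and 20 and 17 on, Tgm3 0 counts off and 4 and 2 on, and the envelope protein Ivl 73 and 4 off and 970 and 432 on. Cnfn and Tgm3 could therefore only rise in COL BRAF. Tgm3, a transglutaminase, was the 1 that fell in COL BRAFp53, with 31 and 95 counts off and 16 and 7 on. edgeR called 0 genes of these 3 lists in either p53 arm. At an unadjusted p under 0.05 there were 6 cornified, 1 desmosome and 0 hemidesmosome genes in COL p53 and 0, 0 and 1 in SI p53, and of these lists DESeq2 called 4 cornified genes in COL p53 and limma-voom 0. The squamous markers, of which 6 are among the 43 further keratins and Dsg3 among the desmosome genes, summed to at most 14.7 CPM in any library. Of the 7 tested in COL, Krt13 and Dsg3 rose in both COL BRAF and COL BRAFp53, and of the 4 tested in SI, Dsg3 rose in SI BRAF with all libraries kept.

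The genes whose log2 CPM (with 0.5 CPM added and the tissue mean removed) followed a keratin most closely over the 24 libraries were searched among 16306 genes, as a description only, since all points share libraries and the induction. Krt8 was closest to Anxa2, an annexin (Pearson's r = 0.98), and to Ezr, the microvillus linker ezrin (0.97). Krt20 was closest to Cast, the calpain inhibitor (0.99), and Heph, a ferroxidase of enterocytes (0.97), and Krt19 to Anxa7 (0.97). Krt18 was closest to Tead4, a TEAD transcription factor (0.96), then to the EGF-family ligand Btc (0.94) and to Mdm2, the p53 ubiquitin ligase (0.94), and Krt23 to Phlda2 (0.92). Among the keratins themselves, Krt8 and Krt19 were the most alike (0.96), followed by Krt7 and Krt8 (0.94), whereas Krt18 and Krt20 (0.66), Krt20 and Krt23 (0.55) and Krt23 and Krt80 (0.12) were less so.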

How the data were processed

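RNA from 24 organoid libraries was measured. The authors trimmed and aligned the reads; the processing notes name Trimmomatic 0.36 and STAR 2.5.2b, the study's methods the mouse genome mm10, and the notes mm9 as well. The deposited values are raw counts per gene, 1 column per library, which the authors had not normalized; the use of strand was not given in the sources used here. Of 45706 identifiers, 45143 matched GENCODE release M21 (GRCm38), and all 10 keratins did. Levels are CPM scaled by TMM over all 24 libraries. Per tissue, counts were filtered with filterByExpr and tested by quasi-likelihood over the 6 groups (edgeR 4.0.16, R 4.3.3), and p-values were adjusted over all tested genes (Benjamini-Hochberg); SE is the log2 fold change divided by the root of F, and approximate intervals use the normal distribution. Whether responses differed between tissues was tested in a fit of all 24 libraries. DESeq2 1.42.0, limma-voom (limma 3.58.1; the study names limma), RLE size factors, other filters on low counts, a replicate block and leaving out each library were the alternatives. Levels per kb use the longest principal transcript. Limits of detection cover counting error only. The code was tested on simulated data. The members, gene lists and rule for named genes (the 10 members, up to 4 called genes of a list with the largest folds, the 3 nearest patterns) were chosen with earlier results of these data known. Enterocyte examples, and arms beyond those in which the rule named a list gene, were picked after their values were seen. One gene of the hemidesmosome list is not reported here by name.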

Additional observations from a re-analysis of the deposited data

Results flagged for a closer look

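Groups of 2 libraries were too small for a search for outlying libraries, so the results below stand out because a response differed between cultures or tissues by a test of the difference itself (edgeR, adjusted p under 0.05). Between SI BRAFp53 and SI BRAF, the response of Krt18 differed by 0.69 (log2) and that of Krt20 by -1.31. Between COL and SI, the response to BRAF differed by 0.73 for Krt7, 1.33 for Krt18 and 1.014 for Krt23, and the response to BRAFp53 by 0.85 for Krt8 and 1.13 for Krt19. Every one of these compares cultures of 1 donor each, and the tissues also differ in dose and day and, for BRAFp53, in the sex of the donor by Xist and Y-linked reads, so the causes cannot be told apart. The Xist counts of SI BRAF on replicate 1 (770) concern the comparisons with SI BRAF, where the values without that library were 0.70 (Krt18) and -1.32 (Krt20) between the SI cultures and 0.67 (Krt7, adjusted p = 0.109), 1.34 (Krt18) and 1.051 (Krt23) between the tissues.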

How the results depend on the processing

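Each group holds 2 libraries of 1 culture, and keratins at low counts (Krt6a, Krt80) as well as abundant ones (Krt7, Krt8) lost calls or changed sign when 1 library was left out. Of 480 values with 1 library or culture left out, 432 kept direction and side of the threshold, 23 lost and 5 gained the call and 20 changed sign or fell to 0.0; of 501 values under the other settings 470, 2, 25 and 4 did so, and no called value changed sign. In COL p53 the count of called keratins went from 0 to 5 without a filter on low counts and to 3 with DESeq2. The BRAF response of COL against SI had 3 keratins called, 6 without the filter and 5 with DESeq2, that of BRAFp53 2 and, without the filter, 4, and the COL difference of BRAFp53 and BRAF 0 and 1. In off organoids 5 of 8 tested were called. With at least 10 counts in every library 3 of 6 were, since Krt4 and Krt80 were then not tested. Over libraries left out, the counts spanned 0 to 3 (COL p53), 1 to 2 (BRAF response, COL against SI) and 1 to 2 (BRAFp53 response, COL against SI). Over all genes, COL p53 had 27 calls, 324 with DESeq2, 569 without the filter and 15 with the replicate block, and SI p53 0, 55, 155 and 0. The BRAFp53 response of COL against SI had 693, 1554, 1548 and 545, and the COL difference of BRAFp53 and BRAF 1366, 1312 and 17 under these 3 settings. The mean type I share over the 24 libraries, 63.4%, was 57.0% from raw counts and 61.16% with the length of all exons, which was chosen after seeing the data.

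Values that changed sign or, for Krt80 in SI BRAFp53, fell to 0.0, none of them called, were these. Krt20 in the BRAFp53 response of COL against SI went from -0.04 to 0.015 with RLE size factors, 0.031 without the filter and 0.015 with DESeq2, and spanned -0.44 to 0.28 over libraries left out. Krt19 in off organoids went from 0.07 to -0.04 with limma-voom and spanned -0.45 to 0.28. With libraries left out, Krt6a spanned -5.26 to 5.81 in COL BRAF and -5.44 to 5.63 in the COL difference of BRAFp53 and BRAF, where Krt8 spanned -0.047 to 0.30 and Krt23 -0.10 to 0.27. In COL p53, Krt8 spanned -0.012 to 0.57 and Krt20 -0.57 to 0.004, and in SI p53 Krt8 -0.002 to 0.042. Krt80 spanned -0.26 to 0.86 in COL BRAFp53, -6.56 to 0.57 in SI BRAF, 0.0 to 7.46 in SI BRAFp53 and -7.52 to 0.22 in the BRAFp53 response of COL against SI. The cause was not tested. Another scaling moved the median of all genes by at most 0.056 (log2).

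The replicate numbers do not pair the libraries: over the 2 pairs of a culture the correlation of deviations was -0.094 to 0.119. With the replicate block the number of keratins called was 7 in COL BRAF, 6 in COL BRAFp53, 5 in SI BRAF, 6 in SI BRAFp53 and 0 in both p53 arms, 0 and 2 for the differences of BRAFp53 and BRAF in COL and SI, 3 and 2 for the responses of COL against SI, and 7 in off organoids with the 12 libraries kept apart, a fit that counts duplicates of a culture as replicates of the tissue and whose 2 further calls (Krt8 and Krt20) did not pass with the libraries of a culture summed. The 3 called with the block for the BRAF response of COL against SI include Krt20, so a call of Krt7, Krt18 or Krt23 was lost. The list counts without SI BRAF on replicate 1 were added after seeing the data.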
